A study of Rattus norvegicus and Bos taurus with 12 samples.

Results

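Cytosolic ribosomal proteins are encoded by genes whose symbols begin with Rpl (large, 60S subunit) or Rps (small, 40S subunit). Genes were taken by symbol alone: Rpl or Rps followed by a number with its suffix, or by the stalk and laminin receptor names (Rplp0 to Rplp2, Rpsa). Of the 7052 genes listed for adult rat ventricular myocytes (ARVM), 75 carried such a symbol, 45 of the large and 30 of the small subunit. None of the 2115 genes listed for bovine cardiac fibroblasts (Cfib) did. Mitochondrial ribosomal proteins (Mrpl, Mrps) and the ribosomal protein S6 kinases were left out by the rule.

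Each cytosolic ribosome is built from ribosomal RNA and a set of proteins that are normally made in matched amounts, so that their mRNAs are among the most abundant and most evenly expressed in a cell. Most of these mRNAs begin with a run of pyrimidines, the 5′ terminal oligopyrimidine (5′ TOP) tract, through which their translation follows nutrient and growth signals sensed by mTORC1. In the heart, growth of the myocyte is accompanied by production of new ribosomes, and striated muscle also uses muscle-restricted forms of a few ribosomal proteins.

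Total RNA was sequenced from 6 ARVM libraries and 6 Cfib libraries, 3 in each of 4 groups. ARVM were isolated from Sprague Dawley rats. The PH-CM libraries, titled ha2, ha209 and ha211, came from ARVM kept for 7 days in medium conditioned by right ventricular fibroblasts of calves with pulmonary hypertension (PH). The control libraries, titled con4, con5 and con6, carry a treatment label naming serum of low altitude cows, whereas the study's text describes its comparison cells as untreated and freshly isolated. With freshly isolated controls, the medium and the days in culture cannot be told apart. Cfib came from calves kept at the altitude of Denver (CO) or exposed to hypobaric hypoxia (PH), and these cells carry treatment labels naming low and high altitude serum. The labels do not show whether ARVM libraries came from separate animals, so p-values for ARVM measure the spread between libraries, which may be technical. In bulk RNA, fewer cells of a type and less RNA per cell cannot be told apart.

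The values for ARVM are normalized counts, reads divided by 1 size factor per library. The reads on listed genes numbered 12122463 to 17926137 in the control libraries and 15939590 to 18842171 in the PH-CM libraries. Each deposited table was cut down by the authors to genes with a significant group difference, so a gene that is not listed may have been unchanged, low or absent from the annotation. The cardiac myocyte markers Myh6, Myh7, Tnnt2, Tnni3, Actc1, Ryr2, Pln and Mb made up 6.89 to 6.98% of the listed reads in the control libraries and 1.16 to 1.44% in the PH-CM libraries, with 7 of 8 lower and 1 (Myh7) higher. Markers of other cells moved with the groups as well. All 8 fibroblast markers were higher in PH-CM, together 0.00770 to 0.0102% of listed reads in control and 0.632 to 0.909% in PH-CM. The 5 listed leukocyte markers and 6 proliferation markers were also higher, 3 of 5 smooth muscle and pericyte markers were higher and 2 lower, and all 6 endothelial and 2 listed erythroid markers were lower. The part of these cell types in the values of the ribosomal protein genes was not tested.

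Most ribosomal protein genes rose together and by a similar, modest amount in PH-CM. Of the 75 genes, 73 were higher and 2 were lower (Rpl3l, and Rps4y2 on the authors' scaling but not with equal listed totals) at an adjusted p under 0.05 by limma on log2(value + 1), adjusted after Benjamini and Hochberg across the 7052 listed genes. Of all listed genes 97.6% passed in either direction, 53.9% higher and 43.7% lower, since genes were listed for a difference. Passing the test therefore says nothing about the ribosomal protein genes. The groups did not overlap for any of the 75 genes, nor for any of the 7052 listed genes (100%). The median log2 fold change was 0.56, a 1.48-fold difference, with quartiles of 0.41 and 0.72. For all listed genes the median was 0.37, with quartiles of -0.67 and 1.53. Of the ribosomal protein genes, 58 (77.3%) lay above the median of all listed genes, and 57 lay between 0.3 and 0.9. An absolute log2 fold change of at least 1 was reached by 7 of 75 (9.33%), compared with 48.5% of the listed genes. In the plot of fold changes by subunit, most points form a narrow column beside the median of all listed genes.

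**Figure D1:**
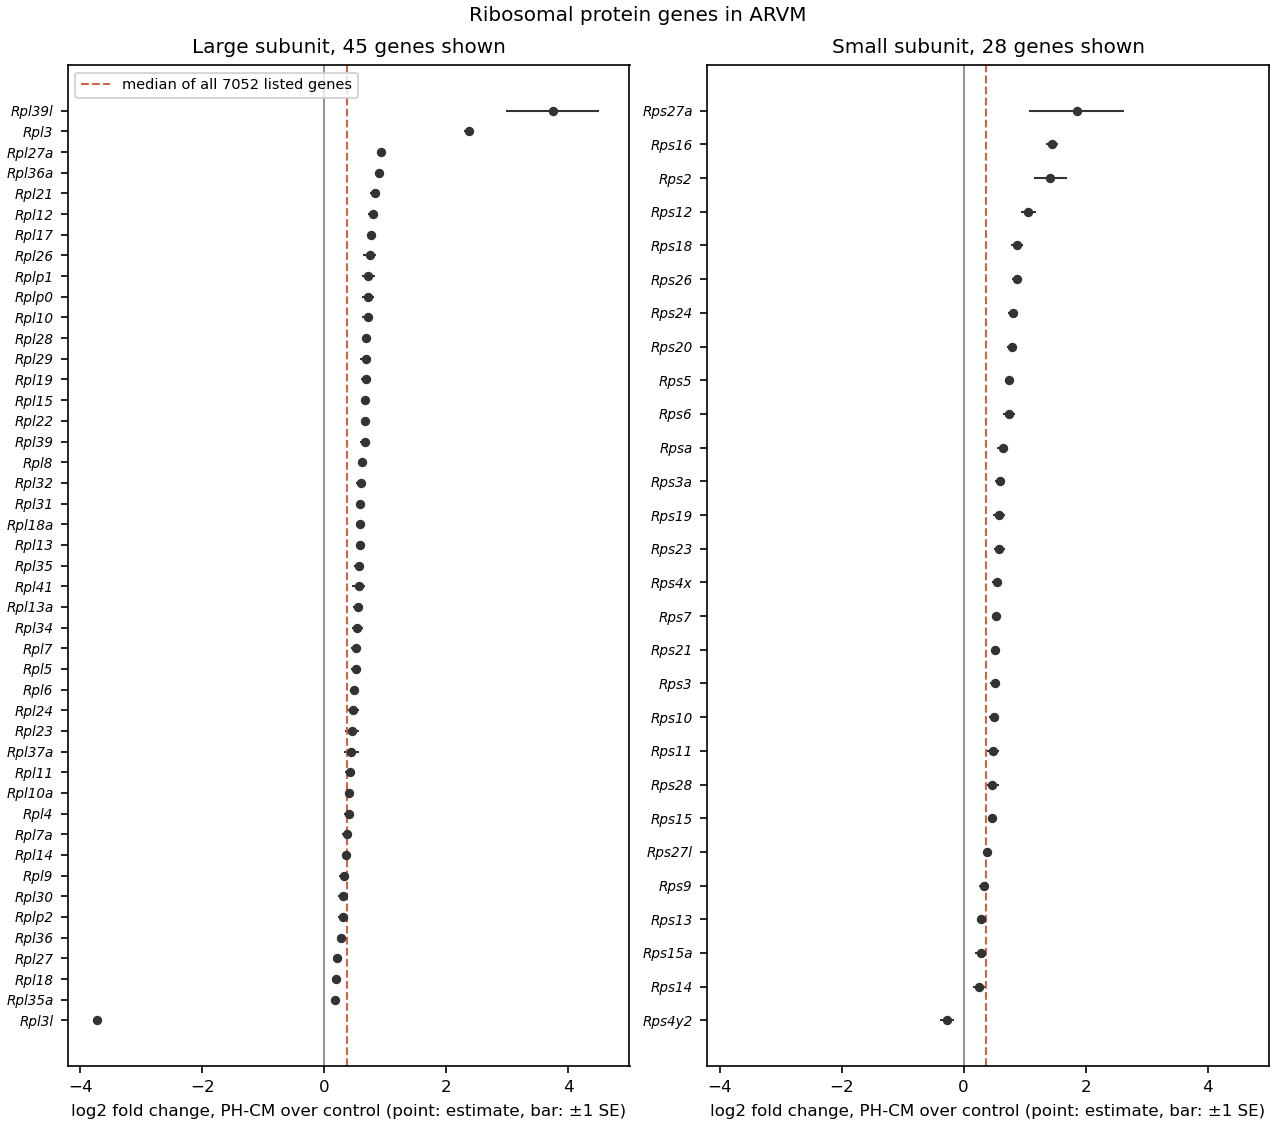
Log2 fold change of 73 of the 75 ribosomal protein genes in ARVM, PH-CM over control, from limma on log2(value + 1). Points are estimates from 3 against 3 libraries, bars are 1 SE, the grey line marks 0 and the dashed line the median of all 7052 listed genes (0.37). Rpl3l (-3.72) and Rps4y2 (-0.27, but 0.15 with equal listed totals) lie below 0, and Rpl39l (3.74) and Rpl3 (2.37) lie farthest above.

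The size of these differences depends on how the libraries are scaled. The listed genes summed to 18518235 to 19184739 normalized counts in the control libraries and to 13752013 to 14253656 in the PH-CM libraries. Rescaling every library to the same listed total moved the median of all genes by 0.42 on the log2 scale and the median of the ribosomal protein genes to 0.98. The direction of 74 of the 75 genes was the same under each scaling tried, and that of Rps4y2 was not. For the genes that rose, this follows from the sizes of the shifts. Equal listed totals moved them further up, and the other scalings moved their median only from 0.56 to 0.54. The smallest rise was 0.18 (Rpl35a), so the shared direction adds no evidence for the rises. The share of a library's listed reads does not depend on the scaling. Ribosomal protein genes took 10.5, 10.3 and 10.2% of the listed reads in control libraries con4, con5 and con6, and 20.4, 21.4 and 21.1% in PH-CM libraries ha2, ha209 and ha211. The groups did not overlap, and the means were 10.3% ± 0.120 and 21.0% ± 0.512 (SD, n = 3 each), with an exact two-sided permutation p of 0.1, the smallest that 3 against 3 libraries can give. Without the 8 cardiac myocyte markers in the total, the means were 11.1% and 21.2%. Other genes of the myocyte stayed in that total, so the part of myocyte RNA in the share was not tested. The summed normalized counts of the 75 genes rose by less than their share, from 1953737 ± 57216 to 2950427 ± 47513 (SD, n = 3 each, exact permutation p = 0.1).

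**Figure D2:**
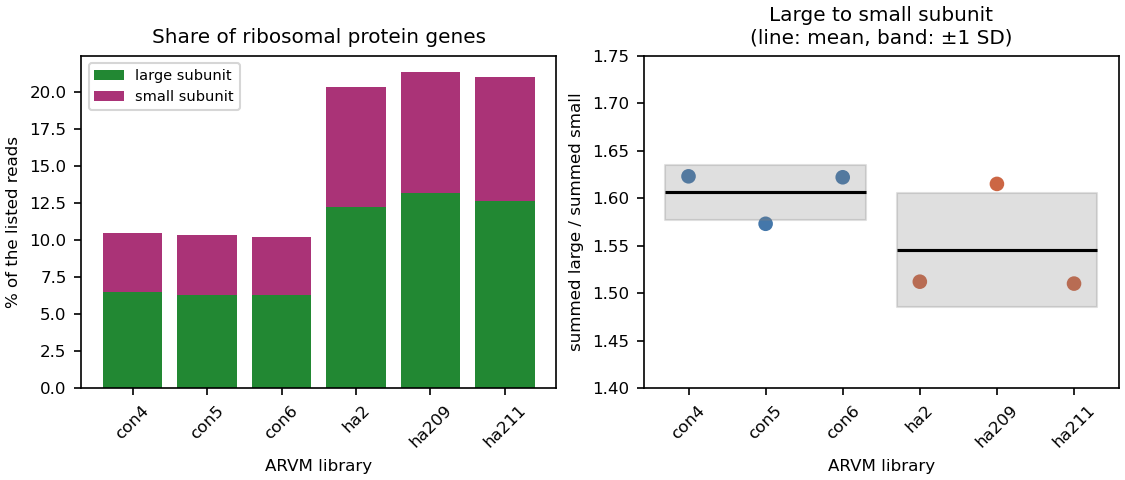
Left, ribosomal protein genes as a percent of the listed reads in each ARVM library, stacked by subunit. Right, the summed large subunit over the summed small subunit values without paralogs, on an axis that does not start at 0, with the mean and 1 SD of each group: the shares separate the groups (10.2 to 10.5% against 20.4 to 21.4%) and the ratios overlap (1.57 to 1.62 against 1.51 to 1.61).

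Replicates agreed closely for these abundant mRNAs. The median coefficient of variation was 5.41% in control and 4.93% in PH-CM libraries, against 9.73% and 9.72% for all listed genes. The median ribosomal protein gene differed from its control mean by 0.06, 0 and -0.06 on the log2 scale in control libraries con4, con5 and con6, and by 0.55, 0.57 and 0.58 in PH-CM libraries ha2, ha209 and ha211. Control library con4 was the highest of its group for 46 genes and control library con6 the lowest for 49. The coefficient of variation passed 20% for 3 genes in control (Rps27a, Rpl39l and Rps2) and for 2 in PH-CM (Rps2 and Rpl39l). In 6 fits that each left out 1 library, 68 to 74 of the 75 genes passed, beside 6452 to 6695 of the 7052 listed genes. Of the ribosomal protein genes 66 passed every time, without a matching count for all listed genes to set beside them. The other 9 included Rps4y2, Rpl35a, Rpl18, Rpl27, Rps14, Rps15a and Rps27a, of which Rps14 and Rps15a are named after their values were seen. edgeR's quasi-likelihood test on the recovered reads passed 73 of the 75 genes (96.6% of all listed genes), without Rps27a and Rpl35a, and DESeq2 passed 74 (94.6%), without Rps27a. In these tests 53% and 51.6% of all listed genes were higher in PH-CM. An unequal-variance test per gene passed 70 of the 75, without Rpl18, Rpl39l, Rps2, Rps27a and Rpl35a, and 81.2% of all listed genes (43.5% higher and 37.7% lower).

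**Figure D3:**
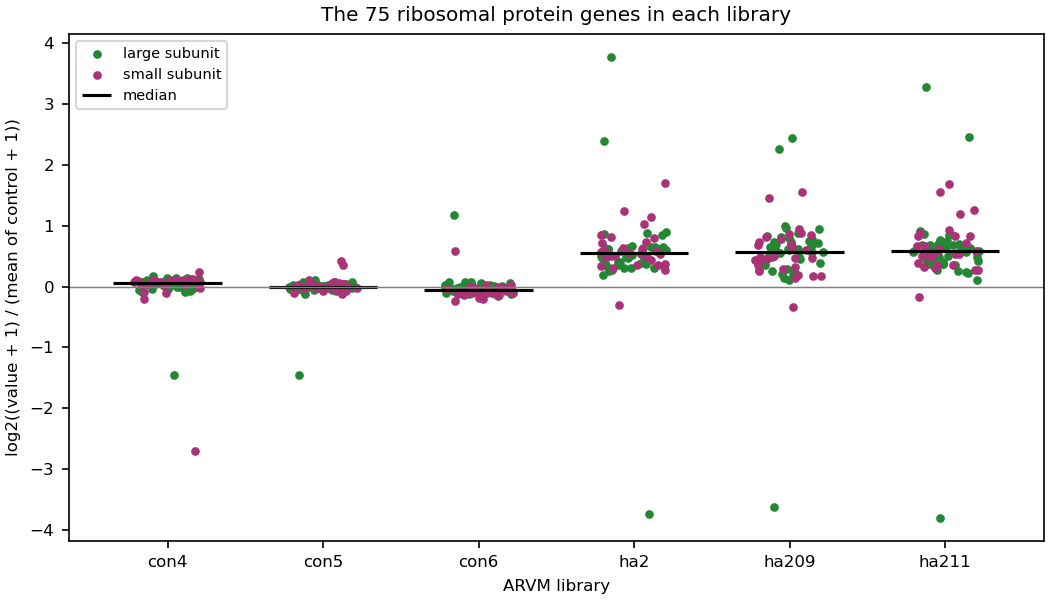
Log2 of (value + 1) over (control mean + 1) for the 75 ribosomal protein genes in each ARVM library, large subunit in green and small subunit in purple, with the median as a bar. The medians lie between -0.06 and 0.06 in the control libraries and between 0.55 and 0.58 in the PH-CM libraries; the lone point near -2.7 in control library con4 is Rps27a.

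To show what the start sites of these genes share, RefSeq promoter windows of the GRCr8 assembly were searched; they reach from 250 bases before to 50 bases after the annotated start. A window was found for 62 of the 75 genes. The sequences that follow cover the bases around the start on the transcribed strand, 5′ to 3′, with the longest run of C and T within 25 bases of the start in capitals. The first windows are shown for this run, wherever it begins, across genes that rose much and little. The Rpl3 and Rps4 pairs are shown because the ratio of their members differed between the groups. Windows of 25 bases on each side of the start follow for all but Rpl3 and Rpl3l, which have 100 bases before it.
Rpl19, chr10:83519039-83519088, + strand: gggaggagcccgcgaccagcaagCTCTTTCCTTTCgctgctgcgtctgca
Rpl28, chr1:78083508-78083557, - strand: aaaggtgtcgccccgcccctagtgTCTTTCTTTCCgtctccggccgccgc
Rplp1, chr8:71290848-71290897, - strand: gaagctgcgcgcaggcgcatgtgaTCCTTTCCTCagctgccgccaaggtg
Rpl35a, chr11:81234997-81235046, - strand: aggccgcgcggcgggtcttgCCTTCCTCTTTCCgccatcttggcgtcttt
Rps16, chr1:92770633-92770682, + strand: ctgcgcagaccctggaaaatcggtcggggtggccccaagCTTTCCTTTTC
Rpl3, chr7:113507966-113508090, - strand: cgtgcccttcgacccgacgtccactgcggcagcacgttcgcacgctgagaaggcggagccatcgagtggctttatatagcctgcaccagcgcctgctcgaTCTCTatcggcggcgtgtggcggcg
Rpl3l, chr10:14258346-14258470, + strand: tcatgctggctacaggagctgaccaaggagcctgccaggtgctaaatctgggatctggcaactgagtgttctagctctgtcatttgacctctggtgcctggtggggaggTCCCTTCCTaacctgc
Rps4x, chrX:71342897-71342946, - strand: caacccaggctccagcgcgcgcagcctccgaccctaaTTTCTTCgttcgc
Rps4y2, chr4:183000888-183000937, + strand: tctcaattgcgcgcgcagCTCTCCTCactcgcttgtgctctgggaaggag

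A run of at least 8 C or T within 25 bases of the start, on the transcribed strand, was present in 49 of 62 ribosomal protein windows (79%). It was present in 18.5% of the 5282 listed genes with a window and in 19.3% of all 27457 windows. Among the windows shown, the run spanned the start in Rplp1 and Rpl28, where it began 1 base upstream. It also did so in Rpl19, Rpl35a and Rps4y2, where it began 2, 5 and 7 bases upstream. It began at base 10 of the transcript in Rpl3l and at base 15 in Rps16, where it reached the limit of 25 bases. The median log2 fold change was 0.55 for ribosomal protein genes with such a run and 0.56 for those without one. Motifs were searched on both strands of the whole window. TTCCGG, the core bound by ETS factors, was in 48.4% of ribosomal protein windows, 25.6% of listed genes and 15.8% of all windows. GGGCGG, the GC box of Sp1, was in 58.1%, 61.5% and 34.9% respectively. CACGTG, the E-box bound by Myc and Max, was in 8.06%, 8.84% and 6.65%. TATAA was in 25.8%, 14% and 26.1%. These matches describe letters in a window and not a bound site.

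In the large subunit 44 of 45 genes rose and 1 fell, with a median log2 fold change of 0.57. In the small subunit 29 of 30 rose and 1 (Rps4y2) fell on the authors' scaling, with a median of 0.54. The summed large subunit values were 1.62, 1.57 and 1.62 times the summed small subunit values in control libraries con4, con5 and con6, for 43 large and 28 small subunit genes without paralogs. The ratios were 1.51, 1.61 and 1.51 in PH-CM libraries ha2, ha209 and ha211, so the groups overlapped. The means were 1.61 ± 0.0286 and 1.55 ± 0.0601 (SD, n = 3 each), a log2 difference of -0.06 (SE 0.035, exact two-sided permutation p = 0.2). With the median gene of each subunit in place of the sums, the difference was 0.01 in the other direction. A change in the balance of the subunits was thus not detectable beyond the spread between libraries.

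Groups of neighbouring proteins in the ribosome, drawn up after the values were seen, moved with the whole. Of the 75 ribosomal protein genes 73 were higher, and of all listed genes 53.9%. The 7 listed genes of the polypeptide exit tunnel rim (Rpl17, Rpl19, Rpl22, Rpl26, Rpl31, Rpl35 and Rpl39) all rose, by 0.57 to 0.77 on the log2 scale. The 12 listed genes of the head of the small subunit all rose, by 0.27 to 1.85, with a median of 0.66. The upper end is Rps27a, which rose by 0.78 without control library con4. Rpl23a, Rpl37, Rpl38, Rps25, Rps27 and Rps29 of the usual set were not among the listed genes, and nothing can be said of their levels.

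The stalk of the large subunit recruits the translation factors that hydrolyse GTP, and its base Rplp0 carries the acidic proteins Rplp1 and Rplp2. Rplp0 was at 49886, 53528 and 52266 normalized counts in control libraries con4, con5 and con6, and at 82606, 89905 and 83624 in PH-CM libraries ha2, ha209 and ha211. Rplp1 was at 64113, 67160 and 66177 in control and at 98451, 116287 and 111636 in PH-CM. Rplp2 was at 20820, 22610 and 23358 in control and at 27495, 25745 and 28847 in PH-CM. All 3 rose without overlap, Rplp0 and Rplp1 by 0.72 each (SE 0.10 and 0.11, limma adjusted p = 2.2e-04 and 5.12e-04) and Rplp2 by 0.30 (SE 0.08, adjusted p = 7.2e-03). The log2 ratio of Rplp2 to Rplp1, a comparison chosen after their values were seen, differed by -0.42 between the groups (SE 0.10, exact permutation p = 0.1).

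Rpl5 and Rpl11 bind the 5S rRNA and, outside the ribosome, the p53 regulator Mdm2. Rpl5 was at 26519, 25282 and 23812 normalized counts in control and at 35155, 37966 and 34245 in PH-CM, and Rpl11 at 16342, 15002 and 14619 against 19657, 22107 and 19858. Every PH-CM library lay above every control library, with log2 fold changes of 0.51 (SE 0.08) and 0.42 (SE 0.08). Rpl13a, also known for its work in translational silencing after release from the ribosome, had 38265, 39234 and 38396 in control and 55545, 57182 and 56760 in PH-CM, a log2 fold change of 0.55 (SE 0.08, limma adjusted p = 3.08e-04).

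Rpl3 showed the largest rise of any abundant ribosomal protein gene, and Rpl3l the largest fall. Rpl3 reaches with a long extension toward the peptidyl transferase centre, and Rpl3l is its paralog in striated muscle. Rpl3l was at 5509, 5360 and 5747 normalized counts in control libraries con4, con5 and con6, and at 415, 449 and 397 in PH-CM libraries ha2, ha209 and ha211. Rpl3 was at 7220, 6883 and 6502 in control and at 35988, 32772 and 37633 in PH-CM. Both moved far beyond the spread of the libraries and in opposite directions, Rpl3l by -3.72 (SE 0.07, limma adjusted p = 4.37e-08) and Rpl3 by 2.37 (SE 0.08, adjusted p = 1.62e-07). Without correction for transcript length, Rpl3l made up 43.3, 43.8 and 46.9% of the summed counts of the pair in control and 1.14, 1.35 and 1.04% in PH-CM. The log2 ratio of Rpl3l to Rpl3 differed by -6.09 (SE 0.13, exact permutation p = 0.1, the smallest possible). The pair's sum rose from 12407 ± 279 to 35884 ± 2446 (SD, n = 3 each), a log2 difference of 1.53. Beside this, the 8 cardiac myocyte markers differed by -6.62 (Mb) to 0.49 (Myh7) on the log2 scale, 7 lower and 1 higher (median -2.24). The 8 fibroblast markers, all higher, differed by 3.75 to 9.95. The part of these markers' cells in the exchange of Rpl3l for Rpl3 was not tested. In the windows shown above, the longest C and T run near the start is 5 bases in Rpl3 and 9 bases in Rpl3l. It begins at base 1 of the transcript in Rpl3 and at base 10 in Rpl3l.

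**Figure D4:**
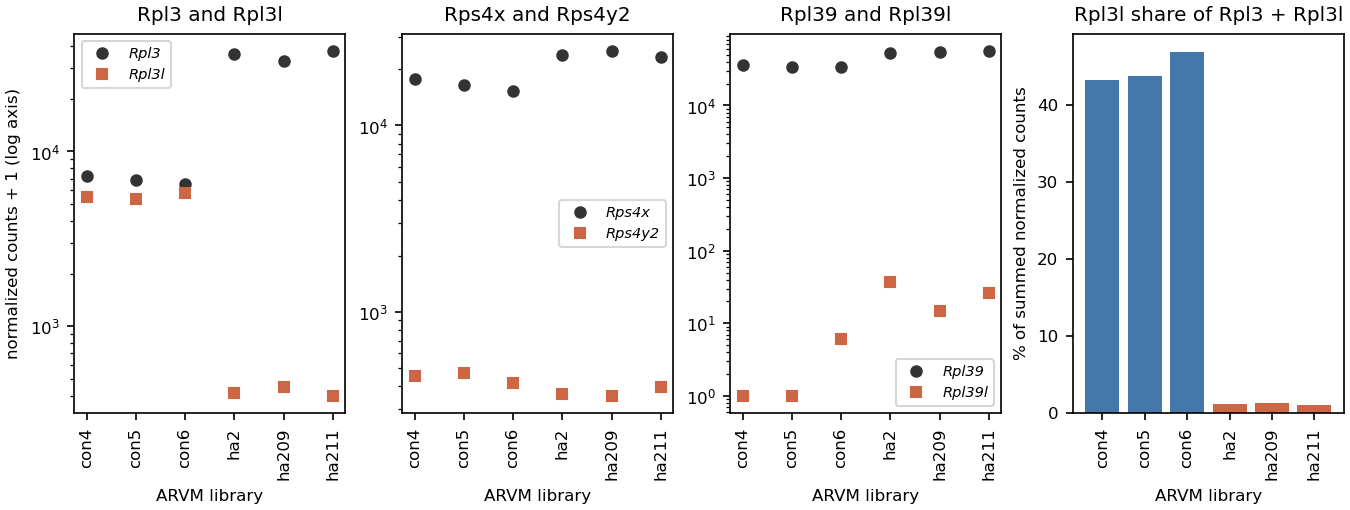
Normalized counts plus 1 of 3 ribosomal protein genes and their paralogs in each ARVM library, on log axes of differing range, and Rpl3l as a percent of the summed normalized counts of Rpl3 and Rpl3l without correction for length. Rpl3l falls from 43.3 to 46.9% of the pair in control to 1.04 to 1.35% in PH-CM; Rps4y2 falls on this scaling (not with equal listed totals) and Rps4x rises, and Rpl39l stays far below Rpl39.

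Rps4y2 and Rps4x, which encode forms of the same small subunit protein, also separated. Rps4y2 was at 449.5, 469 and 414 normalized counts in control and at 359, 352 and 393 in PH-CM, and Rps4x at 17723, 16522 and 15273 against 23946, 25111 and 23434. Neither gene's groups overlapped, and the log2 fold changes were -0.27 for Rps4y2 (SE 0.11, limma adjusted p = 0.0393) and 0.55 for Rps4x (SE 0.08, adjusted p = 2.63e-04). The log2 ratio of Rps4y2 to Rps4x, which no scaling changes, differed by -0.82 (SE 0.09, exact permutation p = 0.1). The fall of Rps4y2 itself passed in 2 of the 6 fits without 1 library, and with equal listed totals it turned to 0.15 (adjusted p = 0.217).

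Rpl39l, the paralog of the exit tunnel protein Rpl39 best known from testis, was close to absent. It had 0, 0 and 5 reads in control libraries con4, con5 and con6, and 48, 16 and 30 reads in PH-CM libraries ha2, ha209 and ha211. All PH-CM libraries lay above all control libraries, with a limma log2 fold change of 3.74 (SE 0.76, adjusted p = 2.13e-03) whose size depends on the pseudocount and which was not called by the unequal-variance test. Rpl39 itself was at 36528, 33652 and 33700 normalized counts in control and at 52950, 54289 and 56286 in PH-CM, a log2 fold change of 0.66 (SE 0.08). Rpl39l made up at most 0.0685% of the summed counts of the pair in any library. Rps27l, the paralog of the unlisted Rps27 and a known p53 target, rose by 0.39 (SE 0.07), from 6200 ± 321 to 8117 ± 491 normalized counts (SD, n = 3 each).

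For 5 further genes the known paralog was not listed, so the pair could not be compared. Rpl22 rose by 0.66, Rpl36a by 0.90, Rpl7 by 0.52, Rpl10 by 0.71 and Rpl26 by 0.74 on the log2 scale. Their groups did not overlap. The GRCr8 annotation holds 275 symbols that match the rule. In 195 of them an l and a number follow another symbol, a form that covers copies and also distinct paralogs. Reads of near-identical copies may have been split or shared, so levels of single genes are uncertain to that extent.

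In the small subunit, Rpsa, which is also the precursor of the laminin receptor, was at 40535, 40947 and 36939 normalized counts in control and at 61139, 61918 and 60731 in PH-CM. Rps6, the substrate of the S6 kinases, was at 29175, 24562 and 26749 in control and at 41293, 49079 and 44219 in PH-CM. The groups lay apart for both genes, with log2 fold changes of 0.64 (SE 0.09) for Rpsa and 0.74 (SE 0.10) for Rps6. Rps16, a protein of the head whose tail reaches toward the decoding site, had 8967, 10459 and 9646 in control and 22918, 28418 and 28529 in PH-CM. Its log2 fold change of 1.45 (SE 0.10, limma adjusted p = 7.64e-06) was the largest among small subunit genes with a coefficient of variation under 20%.

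The rises of Rps2 and Rps27a rest on less even replicates. Rps2, at the mRNA entry of the small subunit, was at 9727, 14425 and 9528 in control and at 36361, 19297 and 36314 in PH-CM, so that PH-CM library ha209 lay near control library con5. Its log2 fold change was 1.42 (SE 0.27, limma adjusted p = 1.4e-03), and it was not called by an unequal-variance test. Rps27a, translated as a fusion of ubiquitin with a small subunit protein, was at 3757 in control library con4 and at 32941 and 36962 in the other control libraries, against 53982, 67204 and 58987 in PH-CM. Control library con4 held 2374 reads of Rps27a where the other control libraries held 30753 and 35780. The log2 fold change was 1.85 with that library (SE 0.78, adjusted p = 0.0474) and 0.78 without it (adjusted p = 1.02e-03). The edgeR and DESeq2 adjusted p-values with it were 0.0626 and 0.137. Rps12, named after its values were seen, rose by 1.06.

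The smallest rises were those of Rpl35a, Rpl18 and Rpl27, all of the large subunit. Rpl35a, a gene mutated in Diamond-Blackfan anaemia, was at 18173, 16929 and 16545 in control and at 20648, 19601 and 18464 in PH-CM. Rpl18 was at 21028, 20820 and 20237 against 23648, 22206 and 24858, and Rpl27 at 19414, 19298 and 18075 against 22998, 20858 and 22053. The groups stood close together without overlap, and the log2 fold changes were 0.18, 0.19 and 0.21 (SE 0.07 each, limma adjusted p = 0.0351, 0.0297 and 0.0169). Rpl35a and Rpl18 passed in 2 of the 6 fits without 1 library and Rpl27 in 5, losing the call without control library con6 (adjusted p = 0.0645).

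Genes that assemble ribosomes did not rise with the ribosomal protein genes. Of 158 such genes in 4 lists, 68 were listed. Their median log2 fold change was -0.45, and 9 were higher, 57 were lower and 2 (Nifk and Bms1) did not pass, where 53.9% of all listed genes were higher and 43.7% lower. With equal listed totals 16 were higher and 12 lower, with a median of -0.03, where 56.9% of all listed genes were higher and 22.5% lower (79.4% in either direction). Equal listed totals move all genes by nearly the same amount. The order of the medians (-0.45 for assembly, 0.37 for all listed and 0.56 for ribosomal protein genes) is therefore the same under both scalings. The second scaling adds no separate evidence for that order, and the counts of higher and lower genes depend on the scaling.

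Among 21 listed pre-60S assembly genes, 3 were higher and 17 lower (median -0.34), and 7 higher and 1 lower with equal listed totals. The largest differences were in Gnl3, a nucleolar GTPase (-0.74), Rsl24d1, a placeholder on the pre-60S particle (-0.60), and the helicase Ddx24 (0.53). Among 25 genes of the pre-40S pathway and small subunit processome, 2 were higher and 22 lower (median -0.50; 4 and 5 with equal listed totals), led by the kinase Riok3 (1.19) and the processome proteins Wdr3 (-0.82) and Rrp9 (-0.81). Among 13 snoRNP and nucleolar genes, 4 were higher and 9 lower (median -0.43; 5 and 4 with equal listed totals), led by Znhit6 (-0.87), Gar1 (-0.77) and Nop10 (-0.73). All 9 listed RNA polymerase I genes were lower (median -0.47), 2 of them with equal listed totals, led by Polr2l (-1.78) and Polr2h (-0.90), subunits shared with other polymerases, and by Taf1a (-0.76).

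Of 34 other genes whose mRNAs are known to carry a 5′ TOP tract, the deposited table held 20. Of these 15 were higher and 5 lower, beside 53.9% and 43.7% of all listed genes (median log2 fold change 0.46, beside 0.37). Eef1a1, the elongation factor that brings aminoacyl-tRNA to the ribosome, was at 34571, 36860 and 33569 normalized counts in control and at 203163, 206236 and 205797 in PH-CM. It rose by 2.55 (SE 0.10), Naca of the nascent chain-associated complex by 1.90 (SE 0.07) and Eef1b2, which recharges Eef1a1, by 0.90 (SE 0.07). The lower genes included Gas5, a host of snoRNAs (-0.80), Ybx1 (-0.62), Hnrnpd (-0.43) and Impdh2 (-0.29), all named after their values were seen. With equal listed totals 16 were higher and 1 lower, beside 56.9% and 22.5% of all listed genes.

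**Figure D5:**
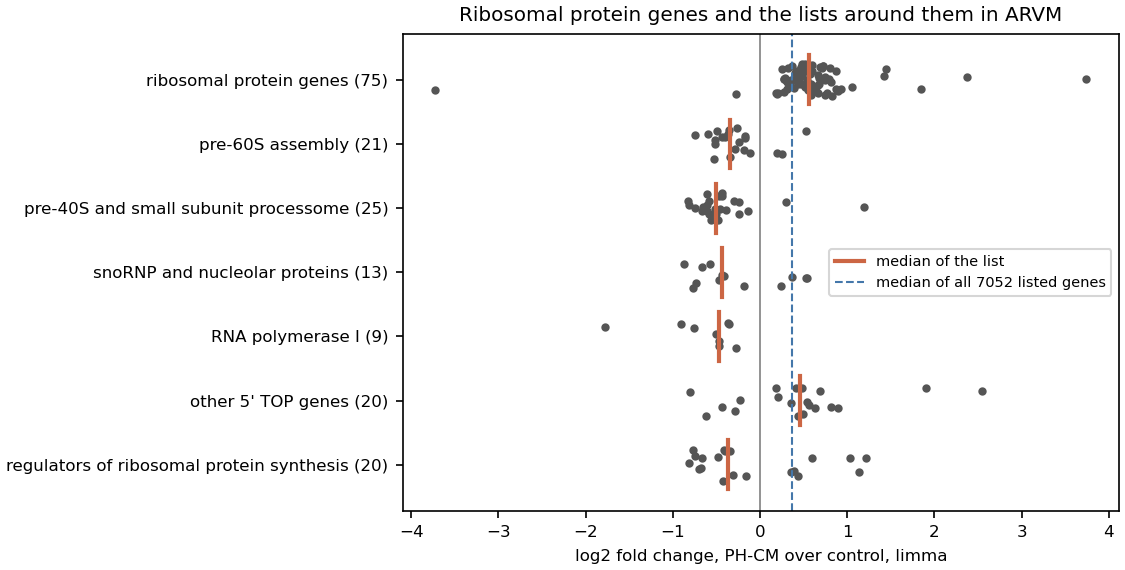
Log2 fold changes, PH-CM over control from limma, of the ribosomal protein genes and of the listed genes in 6 related lists in ARVM, with the number of genes in brackets. Orange bars are list medians and the dashed line is the median of all 7052 listed genes: medians are 0.56 and 0.46 for ribosomal protein and other 5′ TOP genes, and between -0.50 and -0.34 for the other lists.

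Regulators of ribosomal protein synthesis were mixed. The deposited table held 20 of 38, and 7 of these were higher and 13 lower, beside 53.9% and 43.7% of all listed genes (median log2 fold change -0.37). With equal listed totals 8 were higher and 3 lower (Eif4e, Eif4ebp1 and Cnbp), beside 56.9% and 22.5%, and Rheb turned to 0.26 (adjusted p = 5.4e-03), so the values that follow hold on the authors' scaling. In the mTORC1 pathway, the kinase Mtor (-0.31), its activator Rheb (-0.16), its inhibitor Akt1s1 (-0.34), the upstream kinase Akt1 (-0.41) and the S6 kinase Rps6kb1 (-0.42) were lower. The translational repressors Eif4ebp1 (-0.81) and Eif4ebp2 (-0.40) and the cap-binding protein Eif4e (-0.70) were lower too. Tsc1 (-0.48) and Tsc2 (0.39), partners in the complex that restrains Rheb, moved apart. The mTORC1 inhibitors Sesn2 (1.22) and Ddit4 (1.03) rose and Sesn1 (-0.75) fell. Eef2k (0.44) and Pdcd4 (0.60), which slow elongation and initiation, rose. Among Myc family genes, Myc (-0.68) and its partner Max (-0.77) fell, and Mycn (1.13) and the antagonist Mxi1 (0.35) rose. Cnbp, a protein that binds 5′ TOP mRNAs, fell (-0.66).

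In Cfib no cytosolic ribosomal protein gene was listed, so their levels in CO and PH cells could not be compared. Of the related lists 14 genes were listed and all passed by limma, 11 lower and 3 higher in PH; of all listed genes 97.5% passed, 58.2% higher and 39.4% lower. The median log2 fold change of the 14 was -0.29, against 0.33 for all listed genes. The lower genes included TWISTNB, an RNA polymerase I subunit (-0.61), the pre-60S genes RBM28 (-0.43), HEATR3 (-0.40) and NMD3 (-0.35), and the pre-40S genes LTV1 (-0.41), KRR1 (-0.25) and RIOK3 (-0.21). YBX1 (-0.41) and EIF4E (-0.33) were lower as well. AKT1 had signal values of 114, 127 and 95.6 in CO and 158, 156 and 150 in PH, without overlap. It was higher (0.47), as were MXD4 (0.50), a Myc antagonist, and DIMT1 (0.23), an rRNA methyltransferase. Rescaling by the median of ratios moved the median of all Cfib genes by -0.26 on the log2 scale, and then 80.8% of all listed genes passed, 39.7% higher and 41.1% lower. Of the 14, 11 were then lower, 1 (MXD4, 0.22) was higher, AKT1 lost its call (0.18, adjusted p = 0.137) and DIMT1 turned to -0.05 (adjusted p = 0.55). Across these cells the proliferation genes CDK1, CCNB1, CCNA2 and AURKB differed by -2.70, -4.18, -3.52 and -2.02, and the part of proliferation in the assembly genes was not tested.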

How the data were processed

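Per the labels and the study's methods, RNA was aligned with HISAT2 and assembled with StringTie against rn6 (ARVM) and bosTau8 (Cfib), and counts were normalized with DESeq2; versions are not given in the sources used here. The deposited ARVM values are a signal, reads divided by 1 size factor per library: 100% of them came out as whole reads within 0.01. The Cfib values are a signal, normalized by the authors with DESeq2 per the methods, from which no reads were recovered. Both tables hold only genes the authors selected. Total RNA libraries, with ribosomal RNA depleted per the methods, gave 3 samples per group.

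Values were tested as log2(value + 1) with limma 3.58.1 (R 4.3.3, trended eBayes) over all listed genes, and Benjamini-Hochberg adjusted p-values under 0.05 were called. edgeR 4.0.16 and DESeq2 1.42.0 on recovered reads, other pseudocounts (0.1 and 10), scalings, filters on low means (50 and 5), an unequal-variance test and leaving out each library were alternatives. Single ratios were compared by exact two-sided permutation over libraries. On simulated data for the ARVM comparison (7052 genes), limma recovered 200 of 200 genes changed by 2 on the log2 scale and made 9 other calls. The ribosomal protein genes had a smaller median difference (0.56), and most listed genes passed in the real data. The simulation therefore does not show how well differences of that size are called. Python 3.11.15 was used for tables and figures. Depth for ARVM is given with the results; for Cfib it is unknown.

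Members, lists and tests were chosen with earlier results of these data known. Named genes were all paralog pair members, the stalk genes, Rpsa, Rps6, Rpl5, Rpl11 and Rpl13a, the 5 largest and 5 smallest log2 fold changes, genes that did not pass, listed genes outside the rule, listed regulators, and up to 3 called genes with the largest change in each other list. Others are marked, and some genes that the rule covers are not reported here. Promoter sequences are from RefSeq (GRCr8), first entry per gene; the files' own build is rn6, so no coordinates were carried between them.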

Additional observations from a re-analysis of the deposited data

How the results depend on the processing

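Of 306 results recomputed under alternatives, 273 stayed close to the reported value, 32 moved and 1 reversed. Most of these results are counts of called genes. The count for Cfib ribosomal protein genes was 0 in every setting because none is listed. The tally is therefore no measure of how firm the results are. With equal listed totals the calls in the related ARVM lists numbered 55 in place of 105 of 107, and the median of the ribosomal protein genes was 0.98. Requiring an absolute log2 fold change of 1 left 3405 listed ARVM genes, 7 ribosomal protein genes (6 higher), 7 genes of the related lists, 720 Cfib genes and 0 Cfib genes of the related lists, by construction. The large to small subunit difference reversed to 0.01 with subunit medians; the cause was not tested. The log2 ratio of Rpl39l to Rpl39 differed by 3.08, and by 5.31 or 0.91 with a pseudocount of 0.1 or 10.

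Without 1 library, ARVM calls ranged from 6452 to 6695, ribosomal protein calls from 68 to 74 (higher 66 to 73), their median from 0.54 to 0.60, the difference in share from 10.39 to 10.89 percentage points (10.12 without Rps18, the gene with the highest mean), related-list calls from 96 to 101, and the subunit difference from -0.09 to -0.04. Paralog differences ranged from -6.19 to -6.00 (Rpl3l), -0.89 to -0.76 (Rps4y2) and 2.60 to 3.97 (Rpl39l). In Cfib, calls ranged from 1910 to 2052 and related-list calls from 11 to 14. With the replicate number as a block, Cfib calls were 1983 and related-list calls 13. Each gene's group mean was subtracted from log2(value + 1), and the remaining deviations of same-numbered CO and PH samples were correlated. The correlations were 0.258, 0.0312 and 0.259, which do not settle whether equal numbers mark a pairing. No paired analysis of ARVM was possible because its groups share no replicate numbers.

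The 3 libraries per group, lists preselected for a difference, and values without transcript length limit these results: genes cannot be ranked by level, unlisted genes cannot be compared, and no single ratio can reach an exact p under 0.1.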
